A study of Mus musculus with 6 samples.

Results

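Lin28a, Lin28b and 8 classic let-7 target genes were followed in the tailbud of mouse embryos that overexpress Nr6a1. The 10 genes (Lin28a, Lin28b, Igf2bp1, Igf2bp2, Igf2bp3, Trim71, Hmga2, Arid3a, Arid3b and Mycn) were chosen by name, as the Lin28 paralogs and known targets of the let-7 microRNAs, and each had a row among the 54134 genes of the count table. The choice was made with earlier results of these data known. RNA came from E10.5 tailbuds of the C57BL/6 strain, with 1 library for each of 4 wildtype and 2 Cdx2P:Nr6a1 embryos. In the Cdx2P:Nr6a1 embryos, a transgene delivered by pronuclear injection expressed Nr6a1 under a Cdx2 promoter, so each embryo carried an integration of its own. Wildtype embryos were those from the injections that lacked the transgene. Library totals lay between 44073460 and 67183802 counts. Markers of the tailbud were present: the axial progenitor gene T averaged 455 RPKM (CPM per kilobase of exon) and the presomitic mesoderm gene Tbx6 131 RPKM over the 6 libraries. Genes of the Y chromosome were counted in 1 library of each group. The summed CPM of 6 erythroid markers varied from 8050 to 19410 in wildtype and from 9728 to 13440 in Cdx2P:Nr6a1 libraries.

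Lin28a and Lin28b are RNA-binding proteins of stem cells and early embryos that bind the precursors of let-7 microRNAs and block their maturation. Mature let-7 in turn represses mRNAs that carry matches to its seed in their 3′UTR, among them Lin28a and Lin28b themselves and a set of growth genes that are on in the embryo, off in most adult tissue and on again in many tumours, hence the name oncofetal. Lin28a and Lin28b are also known to promote elongation of the body axis, and Nr6a1 (also called GCNF) is an orphan nuclear receptor that represses pluripotency genes. The libraries measured polyadenylated mRNA, and mature let-7 was not measured.

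The let-7 family is defined by its seed, and the family members below are printed to show that they share it. Each is given 5′ to 3′ from RefSeq (GRCm38.p6), with bases 2 to 8, the seed, in capitals.
mmu-let-7a-5p: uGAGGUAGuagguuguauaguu
mmu-let-7e-5p: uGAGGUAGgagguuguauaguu
mmu-let-7g-5p: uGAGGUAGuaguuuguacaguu
mmu-miR-98-5p: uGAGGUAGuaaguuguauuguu
All 9 mature let-7 and miR-98 sequences in the RefSeq table had the same seed, so that a seed match in a target does not tell the family members apart.

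Lin28 proteins recognise the letters GGAG in the loop of many let-7 precursors. Of 12 let-7 and miR-98 hairpins, 9 held GGAG between the arms, and those of Mir98, Mirlet7b and Mirlet7c-2 did not. One loop of each kind follows, from the end of the 5p arm to the start of the 3p arm, with GGAG in capitals.
Mirlet7e: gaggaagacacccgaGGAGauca
Mirlet7c-2: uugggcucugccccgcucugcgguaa

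Seed matches to let-7 were present in the 3′UTR of 9 of the 10 genes. A match was the 7 letters CTACCTC on the sense strand of the longest annotated 3′UTR, and CTACCTCA counted as an 8-base match. Lin28a had 2 matches, both of 8 bases, and Lin28b had 4, of which 1 had 8 bases. Trim71 had 4 matches, each of 8 bases, in a 3′UTR of 5512 bases. Igf2bp1 and Hmga2 had 4 matches each, of which 3 and 1 had 8 bases. Arid3a had 2 matches, and Igf2bp2, Igf2bp3 and Arid3b had 1 match each. Mycn had 0 matches in a 3′UTR of 913 bases, which says only that these letters are not in this window. By comparison, 11.1% of the 11997 tested genes with a 3′UTR held at least 1 match. The 8-base matches of the 3 genes with the largest fold changes follow on the mRNA strand (GRCm38, the minus strand of each chromosome), with the match in capitals.
Lin28a, chr4:134005189-134005210: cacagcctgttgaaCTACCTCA
Lin28a, chr4:134004551-134004572: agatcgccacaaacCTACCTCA
Lin28b, chr10:45381022-45381043: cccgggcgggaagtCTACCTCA
Hmga2, chr10:120364224-120364245: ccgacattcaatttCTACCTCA

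Nr6a1 itself was examined first, since it is the overexpressed gene. Its CPM (counts scaled to the library total) was 3.91, 5.18, 5.53 and 6.89 in wildtype replicates 1 to 4, and 23.4 and 33.8 in Cdx2P:Nr6a1 replicates 1 and 2. Both transgenic values exceeded each wildtype value, and the difference was 2.41 on the log2 scale (adjusted p = 0.00132, edgeR). Reads of the transgene and of the endogenous gene were not separated.

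Of the 10 genes, Lin28a alone was called, that is, passed an adjusted p of 0.05 in edgeR's quasi-likelihood test, and it was higher in Cdx2P:Nr6a1 tailbuds. In the same test, 1.59% of the 12733 genes tested were called, 0.785% higher and 0.809% lower. Each of the 10 genes passed the filter on low counts. At an unadjusted p under 0.05, 6 of the 10 passed, each of them higher in Cdx2P:Nr6a1, where 1342 of the 12733 genes tested passed in either direction. For the same 6 genes, Lin28a, Lin28b, Hmga2, Igf2bp2, Igf2bp3 and Trim71, both transgenic values exceeded each of the 4 wildtype values, as was so for 10.1% of the genes tested. Lin28a, Lin28b and Hmga2, 3 of the 10, were called higher by edgeR's likelihood ratio test, by DESeq2 and without the filter on low counts, settings that called 1.67%, 1.92% and 1.56% of their tested genes higher. The median log2 fold change of the 10 genes was 0.13, compared with -0.0007 for all genes tested. Since the 10 genes were chosen with earlier results of these data known, these shares and medians describe them and do not test them as a set.

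**Figure D1:**
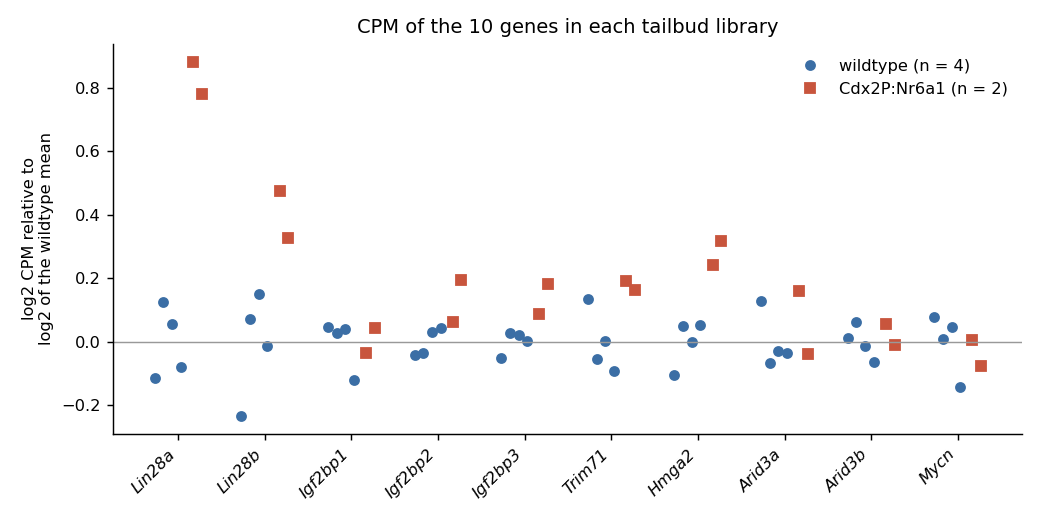
The vertical axis is the log2 CPM of each gene in each library relative to the log2 of its wildtype mean, with circles for the 4 wildtype and squares for the 2 Cdx2P:Nr6a1 libraries. The squares of Lin28a lie far above its circles, those of Lin28b, Hmga2, Igf2bp2, Igf2bp3 and Trim71 lie above theirs by less, and squares and circles overlap for the other 4 genes.

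Lin28a (chromosome 4, 134003330 to 134018841, GRCm38) stood at 162, 191, 182 and 166 CPM in wildtype replicates 1 to 4. In Cdx2P:Nr6a1 replicates 1 and 2 it stood at 323 and 300.5 CPM. The lower of the transgenic values exceeded the highest wildtype value by more than the whole wildtype range. Mean levels were 175 ± 13.8 CPM (SD, n = 4) and 312 ± 15.7 CPM (SD, n = 2), a log2 fold change of 0.82 (95% interval 0.67 to 0.98, adjusted p = 0.00131, edgeR's quasi-likelihood test). Lin28a was called under all 14 alternative settings, including each library left out in turn, and its log2 fold change lay between 0.78 and 0.87. The transgenic library with more Nr6a1 was not the one with more Lin28a. Exons of Lin28a share 234 bases (5.86%) with those of Gm13061 on the opposite strand, a gene with 108 counts over the 6 libraries. In bulk tissue, more cells that express a gene and more RNA per cell cannot be told apart. The neural markers Sox1 and Sox3 were also called higher, and the summed CPM of 8 neural markers was 32.2 to 39.7 in wildtype and 45.4 to 57.95 in Cdx2P:Nr6a1, with Olig2 at 0 in each library. Of 7 presomitic mesoderm markers tested, 0 were called, and 4 log2 fold changes were positive and 3 negative. Tbx6 (log2 fold change -0.26) and Dll3 (-0.14) were lower in Cdx2P:Nr6a1 without overlap. The summed CPM of this list overlapped, at 1299 to 1600 in wildtype and 1232 to 1440 in Cdx2P:Nr6a1. The summed CPM of 6 gut endoderm markers was 405 to 522 in wildtype and 524 to 608 in Cdx2P:Nr6a1, and Krt18 was called. Of this list, Sox17 (log2 fold change 0.02), Cdh1 (0.26), Epcam (0.25) and Cldn6 (0.18) overlapped between the groups. Among 6 axial progenitor markers, Cdx2 was called higher (adjusted p = 0.034, edgeR), at 286 to 303 CPM in wildtype and 410.0 and 347 CPM in Cdx2P:Nr6a1 libraries, while the summed CPM of the list overlapped, at 1657 to 1915 and 1656 to 1928. Nkx1-2 did not overlap between the groups either and was not called (log2 fold change 0.35, adjusted p = 0.081, edgeR). The rest of this list overlapped between the groups: T (log2 fold change -0.18), Wnt3a (-0.10), Sox2 (0.17) and Fgf8 (0.25). The part of these markers in the result was not tested.

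Lin28b (chromosome 10, 45376620 to 45486395), the paralog, stood at 46.6, 57.6, 60.8 and 54.4 CPM in wildtype libraries. The transgenic libraries gave 76.2 and 68.8 CPM, both above the wildtype range. The log2 fold change was 0.40 (95% interval 0.19 to 0.60), and the adjusted p of 0.0836 in edgeR's quasi-likelihood test missed the threshold. Among the 14 alternatives, 4 called Lin28b: edgeR's likelihood ratio test (adjusted p = 0.00592), DESeq2 (adjusted p = 0.00234), no filter on low counts (edgeR, adjusted p = 1.68e-07) and the replicate number as a block (edgeR, adjusted p = 0.00516). In the block setting, wildtype replicates 3 and 4 have no transgenic partner, so the difference rests on replicates 1 and 2 of each group. The adjusted p of edgeR reached 0.49 without Cdx2P:Nr6a1 replicate 1.

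Per exon length, Lin28a was the more abundant paralog in each library. The ratio of Lin28a to Lin28b RPKM was 7.88, 7.53, 6.79 and 6.91 in wildtype replicates 1 to 4. It was 9.60 and 9.90 in the Cdx2P:Nr6a1 libraries, above the wildtype range. On the log2 scale the ratio was higher by 0.43 in Cdx2P:Nr6a1 (two-sided exact permutation test, p = 0.0667, the lowest value that 15 arrangements of 2 libraries among 6 permit). Of the summed Lin28 RPKM, Lin28a made up 87.9% ± 0.745 (SD, n = 4) in the wildtype group and 90.7% ± 0.183 (SD, n = 2) with the transgene.

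Of the RNA-binding targets, the Igf2bp genes encode proteins that bind and stabilise mRNAs, and Trim71 encodes an RNA-binding ubiquitin ligase of early embryos. None of the 4 was called by edgeR or DESeq2, and 3 of them passed an unadjusted p of 0.05 in edgeR's quasi-likelihood test. Igf2bp1 gave 389, 385, 388 and 347 CPM in wildtype and 368 and 388 CPM in Cdx2P:Nr6a1 libraries. The groups overlapped, and the log2 fold change was -0.0019 (95% interval -0.14 to 0.14, adjusted p = 0.997, edgeR).

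Igf2bp2 and Igf2bp3 showed small differences with groups that did not overlap. Igf2bp2 stood at 253, 254, 266 and 269 CPM in wildtype and at 272 and 298 CPM in Cdx2P:Nr6a1, with a log2 fold change of 0.12 (95% interval 0.0023 to 0.24, adjusted p = 0.461, edgeR). Igf2bp3 stood at 139.7, 148, 147 and 145 CPM in wildtype and at 154 and 164 CPM in Cdx2P:Nr6a1, with a log2 fold change of 0.13 (95% interval 0.02 to 0.24, adjusted p = 0.325, edgeR). Exons of Igf2bp3 share 1529 bases (18.7% of its exon bases) with exons of Malsu1 on the opposite strand, where reads counted without strand could not be assigned to either gene. Of the summed RPKM of the 3 Igf2bp genes, Igf2bp1 held 42.4% ± 1.76 (SD, n = 4) in the wildtype group and 40.3% ± 0.504 (SD, n = 2) with the transgene, and Igf2bp3 held 19.3% and 20.1%.

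Trim71 gave 89.0, 78.1, 81.15 and 76.1 CPM in wildtype and 92.55 and 90.9 CPM in Cdx2P:Nr6a1 libraries. Wildtype replicate 1 came close to the transgenic values, and the others lay well below. The log2 fold change was 0.17 (95% interval 0.02 to 0.32, adjusted p = 0.389, edgeR). Trim71 and Igf2bp1 each held 4 let-7 matches in the 3′UTR, as many as Lin28b and Hmga2.

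Hmga2, an architectural chromatin protein and a textbook let-7 target, came closest to the threshold of the genes not called. It stood at 514, 571, 552 and 573 CPM in wildtype and at 652.6 and 689 CPM in Cdx2P:Nr6a1. Both transgenic values were above the wildtype range. The log2 fold change was 0.27 (95% interval 0.15 to 0.40) with an adjusted p of 0.0502 in edgeR's quasi-likelihood test. Hmga2 was called by 3 of 14 alternatives, the likelihood ratio test of edgeR (adjusted p = 0.0308), DESeq2 (adjusted p = 0.000164) and no filter on low counts (edgeR, adjusted p = 0.00188). Without Cdx2P:Nr6a1 replicate 2 its adjusted p was 0.278 (edgeR).

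The transcription factors Arid3a, Arid3b and Mycn were not called by edgeR or DESeq2, 0 of the 3 passed an unadjusted p of 0.05, and their groups overlapped. Arid3a and Arid3b bind AT-rich DNA, and Mycn is the Myc protein of many embryonic progenitors. Arid3a gave 225.7, 197, 202.4 and 201.7 CPM in wildtype and 230.9 and 201 CPM in Cdx2P:Nr6a1 (log2 fold change 0.06, 95% interval -0.10 to 0.22). Arid3b gave 468, 485, 460.0 and 444 CPM in wildtype and 482.5 and 461 CPM in Cdx2P:Nr6a1 (log2 fold change 0.02, 95% interval -0.10 to 0.13). Mycn gave 138.6, 132, 136 and 119 CPM in wildtype and 131.7 and 124.5 CPM in Cdx2P:Nr6a1 (log2 fold change -0.04, 95% interval -0.19 to 0.11). For these 3 genes the adjusted p lay between 0.896 and 0.963 in edgeR's test, and each interval leaves out the log2 change of 0.82 that Lin28a showed.

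**Figure D2:**
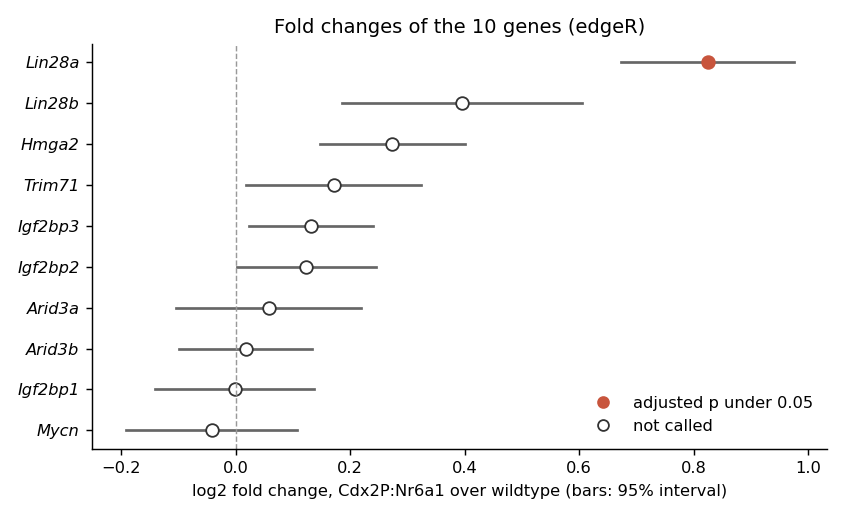
Points are log2 fold changes of Cdx2P:Nr6a1 over wildtype from edgeR and bars are 95% intervals, with a filled point where the adjusted p was under 0.05. Lin28a at 0.82 is the filled point, followed by Lin28b at 0.40 and Hmga2 at 0.27, and the bars of Igf2bp1, Arid3a, Arid3b and Mycn cross 0.

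Compared per exon length in wildtype tailbuds, Hmga2 was the most abundant of the 10 genes at 81.6 ± 4.06 RPKM (SD, n = 4), followed by Arid3b at 58.2 ± 2.145 RPKM (SD, n = 4). Lin28a, at 43.85 RPKM, Mycn, Igf2bp1, Arid3a and Igf2bp2, at 35.2 RPKM, formed a run in which the ranges of neighbours overlapped. Igf2bp3 at 17.75 RPKM, Trim71 at 8.69 RPKM and Lin28b at 6.05 RPKM each lay apart from the next. In Cdx2P:Nr6a1, Lin28a averaged 77.97 RPKM and moved from the third to the second place, above Arid3b.

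**Figure D3:**
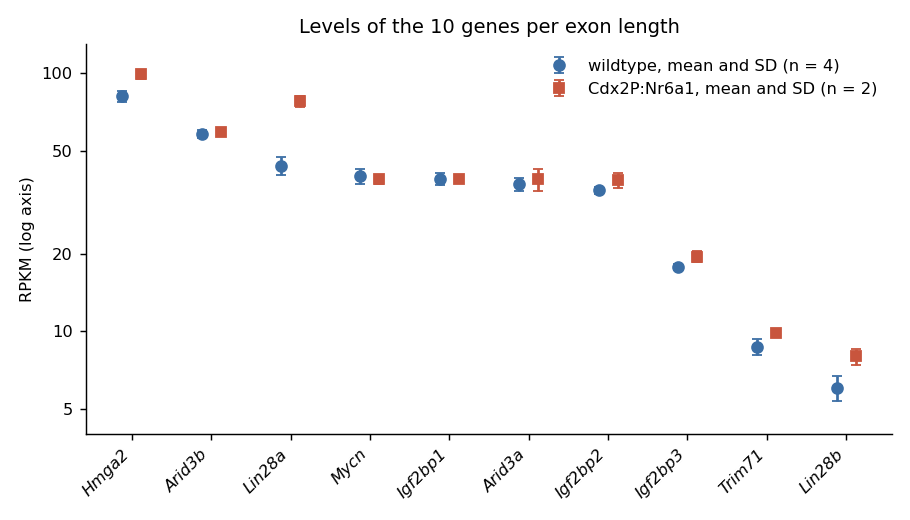
The vertical axis, on a log scale, is the mean RPKM of each gene, with bars of 1 SD, in wildtype (n = 4, circles) and Cdx2P:Nr6a1 (n = 2, squares) tailbuds. Levels run from Hmga2 at 81.6 to Lin28b at 6.05 RPKM in wildtype, and Lin28a shows the widest gap between circle and square.

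Genes that act on let-7 itself showed no call in edgeR's quasi-likelihood test. Of 14 genes of let-7 processing and decay, edgeR's quasi-likelihood test called 0, and 1 (7.14%) passed an unadjusted p of 0.05, a smaller share than that of all genes tested (1342 of 12733). That gene was Dicer1, which cuts the precursor hairpin and was named after its values were seen. Its CPM was 370.2, 382, 363 and 340.3 in wildtype and 291 and 331 in Cdx2P:Nr6a1, below the wildtype range, and the log2 fold change was -0.23 (adjusted p = 0.18, edgeR). DESeq2 called Dicer1 (adjusted p = 0.0225), and the likelihood ratio test of edgeR called 0 genes of the list. The most abundant genes of the list were the RNA-binding protein Hnrnpa1 (log2 fold change 0.01) and the helicase Ddx5 (log2 fold change 0.03). Of 7 genes of the silencing complex, which holds the mature microRNA on its target, 0 were called and 1 passed an unadjusted p of 0.05. DESeq2 and the likelihood ratio test also called 0 of these 7. Its most abundant genes were Ago1 (log2 fold change 0.09) and Ago2 (log2 fold change -0.12).

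Precursor transcripts of let-7 were barely captured. Each of the 12 precursor genes had at most 5 counts in any library, and 8 of them were at 0 in all 6 libraries. Of the 17 precursor and host genes listed, 2 could be tested, Wdr82 and Huwe1, which host let-7g and the pair of let-7f-2 and miR-98, and neither was called by edgeR or DESeq2 or passed an unadjusted p of 0.05 (log2 fold change -0.10 and -0.13).

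Of 28 other let-7 targets, each of them tested, 2 were called higher and 1 lower in edgeR's test, and their median log2 fold change was -0.01. Over all genes tested, 0.785% were called higher and 0.809% lower. Prtg and Igdcc3, cell surface proteins of the immunoglobulin superfamily, rose. Prtg went from 22.6, 28.8, 33.7 and 30.4 CPM in wildtype to 48.35 and 59.9 CPM in Cdx2P:Nr6a1, with a log2 fold change of 0.90 (adjusted p = 0.0152, edgeR). Igdcc3 went from 105, 118, 102.6 and 106 CPM to 150.0 and 141 CPM, with a log2 fold change of 0.43 (adjusted p = 0.0128, edgeR). Cdk6, a kinase of the G1 phase, fell from 117.6, 123, 117 and 118 CPM to 88.5 and 95.5 CPM, with a log2 fold change of -0.37 (adjusted p = 0.0116, edgeR). In the longest annotated 3′UTR, Prtg and Igdcc3 had 2 let-7 matches each and Cdk6 had 0 in 10217 bases. Stard13, named after its values were seen, also had 0 matches. Its log2 fold change was -0.69, and edgeR's quasi-likelihood test did not call it (adjusted p = 0.0525), while DESeq2 did (adjusted p = 5.57e-05). Igdcc3 was not called without either Cdx2P:Nr6a1 library (edgeR, adjusted p = 0.118 and 0.0622), Prtg not without replicate 2 (edgeR, adjusted p = 0.152) and Cdk6 not without replicate 1 (edgeR, adjusted p = 0.0854). The most abundant genes of the list were Rrm2 and Hmga1, with log2 fold changes of -0.10 and 0.14.

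Of 7 other oncofetal genes, Igf2 was called higher and Dlk1 lower in edgeR's test, which called 0.785% of all genes tested higher and 0.809% lower. Igf2, the fetal growth factor, gave 64.4, 65.0, 59.25 and 62.4 CPM in wildtype and 79.2 and 80.5 CPM in Cdx2P:Nr6a1, a log2 fold change of 0.34 (adjusted p = 0.0168, edgeR). Dlk1, an imprinted inhibitor of differentiation, gave 97.1, 83.2, 93.6 and 95.35 CPM in wildtype and 56.4 and 59.2 CPM in Cdx2P:Nr6a1, a log2 fold change of -0.68 (adjusted p = 0.00383, edgeR). Without either Cdx2P:Nr6a1 library, Igf2 was not called (edgeR, adjusted p = 0.101 and 0.144), nor without wildtype replicate 4 (edgeR, adjusted p = 0.0536). The most abundant genes of the list, H19 and Gpc3, had log2 fold changes of 0.23 and 0.01 and were not called in edgeR's quasi-likelihood test. H19 was called by DESeq2 (adjusted p = 0.008), with the replicate block (edgeR, adjusted p = 0.0239) and without wildtype replicate 4 (edgeR, adjusted p = 0.0324).

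**Figure D4:**
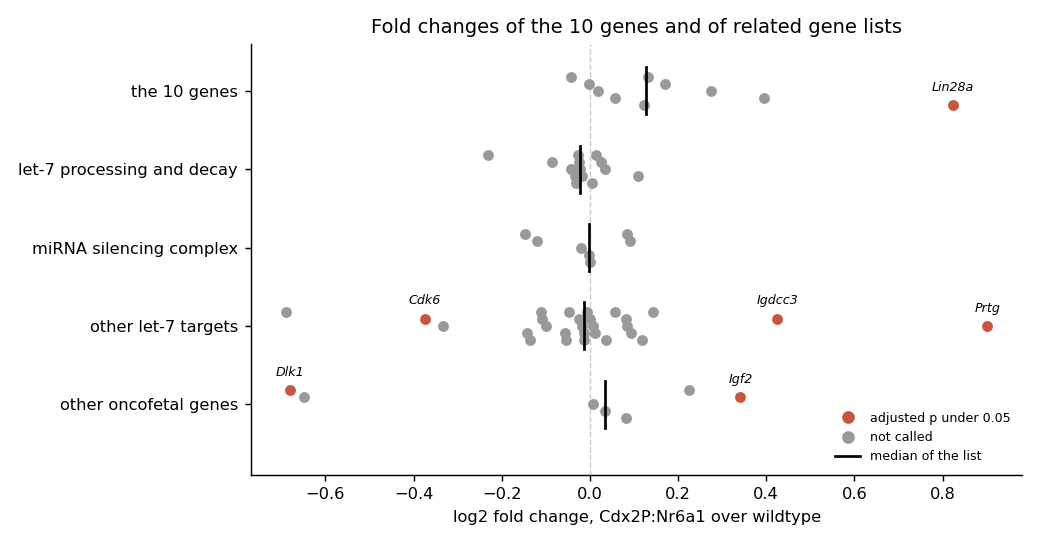
Each point is the log2 fold change of Cdx2P:Nr6a1 over wildtype of 1 gene, in rows for the 10 genes and 4 other lists, with named coloured points for genes called and a black line at the median of each list. The 10 genes have a median of 0.13, and the medians of the other lists lie between -0.02 and 0.03.

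Across the transcriptome, the number of let-7 matches was set beside the fold changes. Tested genes with 2 or more matches numbered 169 and had a median log2 fold change of 0.01. Their median 3′UTR of 3669 bases was longer than that of all genes with a 3′UTR, 1251 bases. Of these 169, 3.55% (6 genes) were called higher and 0.592% (1 gene) lower, compared with 0.8% and 0.834% of all 11997 genes. The 6 genes, named here after their values were seen, were Lin28a, Prtg, Igdcc3, Nr6a1, Rab11fip4 and Smug1, and the gene called lower was Masp1. Nr6a1 is the overexpressed gene, so its call reflects the transgene. The paper describes the transgene as the Nr6a1 coding sequence, so the 3′UTR matches need not be in the added reads. Lin28a, Prtg and Igdcc3 were already described above, so this share is not separate from those results. Among the 1167 genes with 1 match, 1.11% were called higher and the median log2 fold change was -0.01.

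The promoters of the 10 genes were searched for the letters to which Nr6a1 is known to bind, on both strands. RefSeq (GRCm38.p6) held 9 promoters of 8 of the genes, and 0 of them held AAGGTCA, which 4.72% of 32851 promoters of the same length hold. The longer TCAAGGTCA, which includes the shorter letters, was present in 0 of the 9 and in 0.423% of all promoters. These windows alone were searched.

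The tested genes whose pattern over the 6 libraries was most like that of Lin28a were Hsd11b2, Adra2a, Dtx4, Qrfpr and Rnd1, by the Euclidean distance of log2 CPM centred on the wildtype mean, which was 0.13 for Hsd11b2 and 0.28 for Rnd1. Hsd11b2 inactivates glucocorticoids and stood at 17.2 ± 1.67 CPM (SD, n = 4) in wildtype and 29.45 ± 0.0942 CPM (SD, n = 2) in Cdx2P:Nr6a1. Dtx4, a Deltex gene linked to Notch, stood at 18.1 ± 1.70 and 33.7 ± 2.87 CPM. Of the other 9 genes, Lin28b was nearest to Lin28a, at a distance of 0.63 and rank 135, followed by Hmga2 at rank 403.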

How the data were processed

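Polyadenylated RNA of E10.5 tailbuds was sequenced in 6 libraries, 1 per embryo. The submitters' processing notes name STAR and mm10, and the authors deposited the count of reads on each gene as it was, not normalized. The counting program and its use of strand are not given in the sources used here. A deposited table of the authors' own edgeR comparison, with fold changes and p-values, was not used. Exons of the 10 genes and Nr6a1 in the count table were checked against GENCODE M21, and 204 of 204 were the same.

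CPM was computed from column totals and RPKM from the deposited gene lengths. Genes that exceeded 10 counts and 2 CPM in 2 or more libraries were tested by quasi-likelihood in edgeR 4.0.16 (R 4.3.3, TMM normalization, Benjamini-Hochberg adjusted p under 0.05). Standard errors were the fold change divided by the square root of F. Alternatives were the likelihood ratio test, DESeq2 1.42.0, RLE or library size alone, other filters, a replicate block, each library left out and, chosen after seeing the data, sex as a covariate. Scripts were tested on simulated data. Tables and plots used Python 3.11.15.

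The genes named were the 10 genes, Nr6a1, of each other list those called and the 2 most abundant per length, and the 5 genes most like Lin28a (pseudocount 0.01 CPM). Dicer1, Stard13 and markers not called were named after their values were seen. The members and lists were chosen with earlier results of these data known. Mirlet7bhg and Mir100hg had no row, and Tut4 and Tut7 were matched by older symbols. P-values set group differences against the spread between these embryos, with dispersion estimates moderated across genes and only 2 Cdx2P:Nr6a1 embryos. Depth was 44073460 to 67183802 counts. The common biological coefficient of variation, 9.40%, sets the precision.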

Additional observations from a re-analysis of the deposited data

Results flagged for a closer look

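In the wildtype group of 4, Igf2bp1 in replicate 4 lay apart from the other libraries, at 347 CPM beside 385 to 389 CPM, by Dixon's test at the 95% level. Cdk6 in wildtype replicate 2 did so at 123 CPM beside 117 to 118 CPM. These were 2 flags among 16 genes examined, where chance flags about 1 in 20 groups.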

How the results depend on the processing

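Over all genes, 203 calls became 401 with edgeR's likelihood ratio test, 477 with DESeq2, 876 without the filter, 442 with the replicate block, and 61 to 175 with 1 library left out (61 without either Cdx2P:Nr6a1 library, 134 without wildtype replicate 4). Of the 10 genes, 1 was called in the main test, 3 with DESeq2, the likelihood ratio test or no filter, and 2 with the replicate block; it remained 1, Lin28a, under the other alternatives, sex as a covariate included. In let-7 processing and decay, DESeq2 and the test without the filter called 1 gene, Dicer1, instead of 0. The other let-7 targets went from 3 called to 5 with no filter or with the replicate block, and to 1 to 4 with a library left out. The other oncofetal genes went from 2 to 4 with the replicate block and to 1 to 2 with a library left out. Lin28b reached 0.39 (DESeq2), 0.40 (likelihood ratio test), 0.39 (no filter) and 0.47 (replicate block), each then called.

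Log2 fold changes near 0 changed sign: Igf2bp1 gave 0.0038 by library size only and -0.047 to 0.042 with a library left out, Arid3a gave -0.038 to 0.15 with a library left out, and Arid3b gave -0.022 with the replicate block and -0.011 to 0.045 with a library left out. The cause was not tested. The log2 ratio of Lin28a to Lin28b kept its direction with each library left out.

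The labels do not say that equal replicate numbers mark a shared litter. With the replicate block, wildtype replicates 3 and 4 have no transgenic partner and drop out of the group comparison. Deviations from the group means correlated at 0.205 between the replicates numbered 1 and at -0.151 between those numbered 2, over genes. The largest value was 0.314, between wildtype replicate 3 and Cdx2P:Nr6a1 replicate 2. The deviations of 2 transgenic libraries mirror each other, so these values are not separate and cannot decide whether replicate numbers mark pairs. With 2 transgenic libraries, small changes were not resolved: the 95% intervals of the 10 genes spanned 0.22 to 0.42 log2 units. With a transgenic library left out, the remaining one is assumed to vary like the wildtype group.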
